A study of Arabidopsis thaliana with 16 samples.

Results

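SBPASE (AT3G55800), PRK (AT1G32060) and ATPC1 (AT4G04640) are nuclear genes of Arabidopsis thaliana whose products work in the chloroplast. They were found by locus in the probe annotation, and each was named by 1 probe set, so the 3 genes take 3 of the 22746 probe sets that are not controls. All 3 passed the filter on dim signals and were among the 13648 probe sets tested. The probe sets were 251762_at for SBPASE, 255720_at for PRK and 255290_at for ATPC1.

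SBPASE encodes sedoheptulose-bisphosphatase and PRK encodes phosphoribulokinase, enzymes of the part of the Calvin cycle that regenerates ribulose bisphosphate, the acceptor of carbon dioxide. ATPC1 encodes the gamma subunit of the chloroplast ATP synthase, which turns inside the enzyme and couples proton flow across the thylakoid membrane to ATP synthesis. All 3 proteins are switched on in the light by reduction of a disulfide through thioredoxins, and ATP made by the synthase is used by phosphoribulokinase. Transcripts of photosynthesis genes are known to decline as leaves age and senesce, while nitrogen is moved out of the leaf.

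The study measured RNA from whole rosettes on 16 Affymetrix arrays in 8 groups of 2. The genotypes were the wild type Col-0 and the T-DNA insertion mutants atg5-3 (SALK_02060) and atg9 (SALK_130796), 1 line each. ATG5 and ATG9 act in autophagy, the delivery of cell contents to the vacuole for breakdown, and the mutants are called atg5 and atg9 from here on. On low nitrate, 2 mM, the rosettes of Col-0, atg5 and atg9 were taken at 30 and at 60 days after sowing. On high nitrate, 10 mM, only Col-0 and atg5 are among the arrays analysed here. The labels disagree on the age of the high-nitrate rosettes, since titles and design give 30 days where source and description give 60, so high nitrate was kept as a group with no stated age. The day length was short throughout, 8 h of light and 16 h of dark. Each array holds RNA pooled from more than 6 plants of 1 culture, and the 2 arrays of a group come from consecutive cultures, culture 1 and culture 2. Whole rosettes mix leaves of all ages and many cell types, so fewer cells of a type and less RNA per cell cannot be told apart.

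The annotation names no probe set for ATG5 or ATG9, so the mutations could not be checked on the arrays. The leaf marker RCA (Rubisco activase) had signals of 17246 to 31078 on the 16 arrays, and the root marker BGLU23 had signals of 228.3 to 1311. None of the floral markers looked for was named by a probe set. A pair of arrays stood apart from the rest. One was Col-0 on low nitrate at 30 days, culture 1, whose lower quartile was 89.3 where the other 15 arrays had 26.6 to 39. Its r with the other Col-0 array of that group was 0.866, where replicates of the other groups reached 0.929 to 0.950. The other was atg5 at 60 days, culture 1, with an actin 3′ to 5′ signal ratio of 9.05 against 1.50 to 3.04 on the others. Where a result changed its call without both arrays, the value without them stands beside it.

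SBPASE signals are MAS5 intensities on a linear scale, and at 30 days on low nitrate they were 10532 and 14672 in Col-0, culture 1 before culture 2 here and below. They were 14219 and 16538 in atg5. They were 17430 and 14150 in atg9. The lowest of these 6 arrays was the Col-0 array of culture 1, which is the array that stood apart. At 60 days SBPASE stood at 9999 and 9417 in Col-0. It stood at 6715 and 7652 in atg5. It stood at 6804 and 7885 in atg9. Every array at 60 days lay under every array at 30 days, and the 4 mutant arrays were the lowest of the 16 except for 1 high-nitrate array of atg5 that lay among them. On high nitrate the SBPASE signal was 15066 and 12406 in Col-0 and 11421 and 7563 in atg5, without overlap. For groups of 2 arrays, the share of all probe sets without overlap was not counted, here and below. In the order of the group means, atg9 at 30 days was highest with 15790 ± 2319 (SD, n = 2) and atg5 at 60 days was lowest with 7183 ± 662. Between them stood, from high to low, atg5 at 30 days, Col-0 on high nitrate, Col-0 at 30 days, Col-0 at 60 days, atg5 on high nitrate and atg9 at 60 days. The arrays of neighbouring groups in this order overlapped, so their levels did not differ beyond their spread, except for Col-0 at 30 days over Col-0 at 60 days.

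PRK signals at 30 days on low nitrate were 11172 and 13953 in Col-0. They were 14318 and 19479 in atg5. They were 16802 and 16969 in atg9. Both Col-0 arrays lay under the 4 mutant arrays, an order that was not counted over all probe sets. At 60 days the PRK signal was 13327 and 11150 in Col-0. It was 11349 and 10618 in atg5. It was 9364 and 10570 in atg9. The arrays of Col-0 overlapped between the ages, while in each mutant both arrays at 60 days lay under both at 30 days. On high nitrate PRK stood at 17523 and 16913 in Col-0 and at 12694 and 11195 in atg5. The group of Col-0 on high nitrate had the highest PRK mean of the 8, 17218 ± 431 (SD, n = 2), and atg9 at 60 days the lowest, 9967 ± 853. The means of the other groups were, from high to low, atg5 at 30 days with 16898, atg9 at 30 days with 16886, Col-0 at 30 days with 12563, Col-0 at 60 days with 12238, atg5 on high nitrate with 11944 and atg5 at 60 days with 10983. The step between atg9 and Col-0 at 30 days and the step between atg5 and atg9 at 60 days separated neighbouring groups whose arrays did not overlap, and the other neighbours overlapped.

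ATPC1 signals at 30 days on low nitrate were 13804 and 19207 in Col-0. They were 19182 and 22158 in atg5. They were 21132 and 17807 in atg9. The lowest was again the Col-0 array of culture 1, and the other 5 ran from 17807 to 22158. At 60 days the ATPC1 signal was 13900 and 13247 in Col-0. It was 12644 and 12093 in atg5. It was 10673 and 15184 in atg9. The 2 arrays of atg9 were the lowest and the highest of the 6 at this age. On high nitrate ATPC1 stood at 20851 and 15632 in Col-0 and at 17184 and 14465 in atg5, which overlapped. The group means ran from 20670 ± 2104 (SD, n = 2) in atg5 at 30 days to 12369 ± 390 in atg5 at 60 days. From high to low the groups between were atg9 at 30 days, Col-0 on high nitrate, Col-0 at 30 days, atg5 on high nitrate, Col-0 at 60 days and atg9 at 60 days. Of the neighbours in this order, only atg5 on high nitrate and Col-0 at 60 days had arrays that did not overlap.

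**Figure D1:**
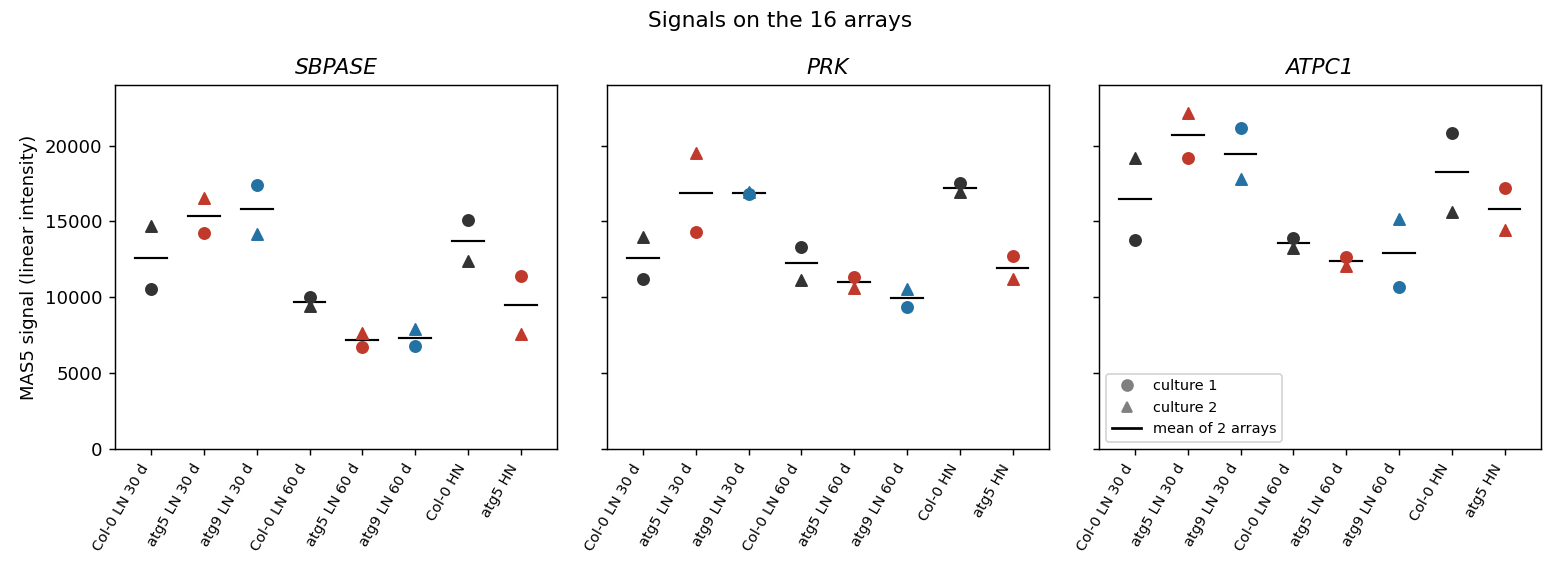
MAS5 signal (linear intensity, y axis) of SBPASE, PRK and ATPC1 in the 8 groups (x axis), with LN for low and HN for high nitrate. Circles are culture 1, triangles culture 2 and horizontal lines the mean of 2 arrays; the 6 SBPASE arrays at 60 days, 6715 to 9999, all lie under the 6 at 30 days, 10532 to 17430.

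The comparison of ages asked how transcript levels differ between rosettes at 60 and 30 days on low nitrate. Averaged over the 3 genotypes, all 3 genes were lower at 60 days, SBPASE most. The log2 change of SBPASE was -0.85 ± 0.15 (SE, 95% interval -1.17 to -0.53), a ratio of 0.554, with an adjusted p of 0.000735 in the limma fit across all probe sets. PRK changed by -0.47 ± 0.12 on the log2 scale (95% interval -0.74 to -0.20), a ratio of 0.723 with a limma adjusted p of 0.00868. ATPC1 changed by -0.54 ± 0.15 on the log2 scale (95% interval -0.85 to -0.22), a ratio of 0.690 with a limma adjusted p of 0.00985. Thus 3 of 3 genes were called lower, where 21.9% of the 13648 probe sets were called lower and 27.3% higher. The median log2 change over all tested probe sets was 0.06, and the changes of SBPASE, PRK and ATPC1 stood at the 11.0, 22.5 and 19.8 percentiles of all changes. With 2 arrays in a group, the number of arrays limits the precision of every value.

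The size of the fall depended on how the arrays were scaled. The authors' values share a trimmed mean, and the signals at the upper end of the arrays, where all 3 genes lie, were lower at 60 days. The signal at the 99.5 percentile of an array was 12211 to 15498 (median 14741) at 30 days and 9940 to 11911 (median 11308) at 60 days on low nitrate, without overlap. In the 6 pairs of arrays of 1 genotype and culture it changed by -0.37 ± 0.19 on the log2 scale (mean and SD), and it was lower at 60 days in 6 of 6. After quantile normalization, which gives every array the same distribution of signals, SBPASE still passed with a log2 change of -0.55 and a limma adjusted p of 0.00159. PRK then changed by -0.10 with an adjusted p of 0.421, and ATPC1 by -0.13 with an adjusted p of 0.199. In the 6 pairs of arrays PRK was then lower at 60 days in 3, ATPC1 in 5 and SBPASE in 6. The part of the upper end of the arrays in the falls of PRK and ATPC1 was not tested further. Without the 2 arrays that stood apart the log2 changes were -0.90 for SBPASE, -0.54 for PRK and -0.63 for ATPC1, with adjusted p of 0.00177, 0.0114 and 0.0114.

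The 12 low-nitrate arrays form 6 pairs of 1 genotype and culture. SBPASE was lower at 60 days in 6 of 6 pairs, with a mean paired log2 difference of -0.85 and an SD of 0.45. Its exact two-sided sign-flip permutation test gave p = 0.03125, the smallest that 6 pairs allow. PRK was lower in 5 of 6 pairs (mean -0.47, SD 0.43) and ATPC1 in 5 of 6 (mean -0.54, SD 0.38), each with an exact permutation p of 0.0625. The pair that ran the other way was Col-0 of culture 1 in both genes, with differences of 0.25 for PRK and 0.01 for ATPC1, and in the same pair SBPASE had its smallest fall, -0.08. That pair holds an array that stood apart. The 6 arrays at 60 days did not overlap the 6 at 30 days for SBPASE, as for 10.6% of all probe sets in that direction, and they overlapped for PRK and ATPC1. That overlap came from the Col-0 array at 30 days that stood apart, with 11172 for PRK and 13804 for ATPC1. The other arrays at 30 days started at 13953 and 17807, above the highest at 60 days, 13327 and 15184. The share of all probe sets split like this without that array was not counted.

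**Figure D2:**
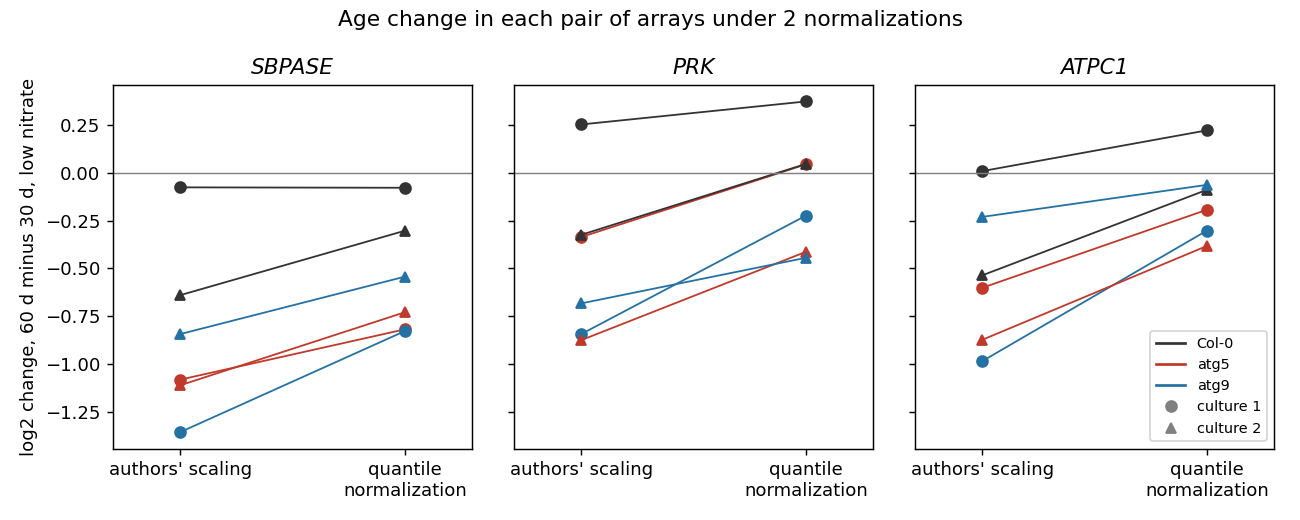
The log2 change from 30 to 60 days on low nitrate (y axis) in each of the 6 pairs of arrays, by the authors' scaling and after quantile normalization (x axis). Lines join 1 pair, colours are genotypes, circles are culture 1 and triangles culture 2; the mean moves from -0.85 to -0.55 for SBPASE, from -0.47 to -0.10 for PRK and from -0.54 to -0.13 for ATPC1.

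Within single genotypes the estimated falls were larger in the mutants than in Col-0, but the differences between genotypes did not pass the test. SBPASE changed by -0.36 ± 0.26 on the log2 scale in Col-0 (limma adjusted p = 0.371). It fell by 1.10 ± 0.26 in atg5 (adjusted p = 0.0103) and by 1.10 ± 0.26 in atg9 (adjusted p = 0.0119), that is to ratios of 0.467 and 0.466. In these genotypes 4.67%, 13.3% and 8.61% of all probe sets were called lower. The cultures gave -1.08 and -1.11 in atg5 and -1.36 and -0.84 in atg9, against -0.08 and -0.64 in Col-0. The calls were lost without some arrays. In atg5 the change was -0.93 with an adjusted p of 0.0591 without the 2 arrays that stood apart, and the call was also lost without the culture 1 array at 60 days or the culture 2 array at 30 days. In atg9 it was lost without either array of culture 1. Over each of the 4 arrays left out in turn, the log2 change stayed between -1.23 and -0.96 in atg5 and between -1.26 and -0.94 in atg9.

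PRK changed by -0.03 ± 0.21 on the log2 scale in Col-0 (limma adjusted p = 0.930), and the cultures gave 0.25 and -0.32. It changed by -0.61 ± 0.21 in atg5 (adjusted p = 0.0569) and fell by 0.76 ± 0.21 in atg9 (adjusted p = 0.0269). The value of atg5 was -0.34 and -0.88 in the cultures and that of atg9 was -0.84 and -0.68, so every mutant pair was below 0. The PRK call in atg9 was lost after quantile normalization (-0.33, adjusted p = 0.205) and without any 1 of its 4 arrays, where the change lay between -0.84 and -0.69. ATPC1 changed by -0.26 ± 0.25 in Col-0 (adjusted p = 0.510) and by -0.61 ± 0.25 in atg9 (adjusted p = 0.103). It fell by 0.74 ± 0.25 in atg5 with an adjusted p of 0.0499, a call that was lost after quantile normalization (-0.29, adjusted p = 0.165), without the 2 arrays that stood apart (-0.75, adjusted p = 0.123) and without any 1 of its 4 arrays, where the change lay between -0.85 and -0.63.

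The difference of the age change, mutant minus Col-0, was tested itself, with both mutants set against the same Col-0 arrays. For SBPASE it was -0.74 ± 0.36 in atg5 (95% interval -1.53 to 0.05, limma adjusted p = 0.376) and -0.74 ± 0.36 in atg9 (95% interval -1.53 to 0.05, adjusted p = 0.988). For PRK it was -0.57 ± 0.30 in atg5 (adjusted p = 0.416) and -0.73 ± 0.30 in atg9 (95% interval -1.39 to -0.07, unadjusted p = 0.0336 and adjusted p = 0.988). For ATPC1 it was -0.47 ± 0.36 in atg5 (adjusted p = 0.566) and -0.34 ± 0.36 in atg9 (adjusted p = 0.989). Of all probe sets 0.161% passed for atg5 and 0.00733% for atg9. The lower ends of the 6 intervals lay between -1.53 and -1.12. Without the 2 arrays that stood apart the estimates were closer to 0, at -0.27 and -0.43 for SBPASE, -0.48 and -0.58 for PRK and -0.22 and -0.08 for ATPC1 in atg5 and atg9, and the age change of Col-0 itself was then -0.67, -0.18 and -0.52 in the same order of genes.

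The autophagy mutants were compared with Col-0 in each condition, and none of the 3 genes passed the test in any of them. At 30 days on low nitrate the estimates were above 0. In atg5 they were 0.30 ± 0.26 for SBPASE, 0.42 ± 0.21 for PRK and 0.34 ± 0.25 for ATPC1, with limma adjusted p of 0.800, 0.700 and 0.776. In atg9 they were 0.34 ± 0.26, 0.44 ± 0.21 and 0.25 ± 0.25, with adjusted p of 0.855, 0.799 and 0.898. In this condition 0 probe sets passed in limma for atg5, where 960 had an unadjusted p under 0.05, and 0.00733% passed for atg9. Without the 2 arrays that stood apart, 1 of which is the Col-0 array of culture 1, SBPASE in atg5 and ATPC1 in atg9 both came to -0.01. With single arrays left out, the lowest values for SBPASE were 0.02 in atg5 and 0.05 in atg9. For ATPC1 they were 0.08 in atg5 and -0.01 in atg9, so each of these estimates came near 0 without some array.

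At 60 days on low nitrate the estimates were below 0. In atg5 they were -0.44 ± 0.26 for SBPASE (95% interval -0.996 to 0.12), -0.15 ± 0.21 for PRK and -0.13 ± 0.25 for ATPC1, with limma adjusted p of 0.330, 0.725 and 0.799, where 5.83% of probe sets passed. In atg9 they were -0.41 ± 0.26, -0.29 ± 0.21 and -0.09 ± 0.25, with an adjusted p of 0.999 for each gene, where 0.044% passed. On high nitrate SBPASE differed by -0.56 ± 0.26 in atg5 (95% interval -1.12 to 0.00, adjusted p = 0.621), or by -0.88 to -0.23 with single arrays left out, and PRK by -0.53 ± 0.21 (95% interval -0.998 to -0.06, unadjusted p = 0.0296 and adjusted p = 0.539). ATPC1 differed by -0.20 ± 0.25 there (adjusted p = 0.937), and 0.169% of probe sets passed. For SBPASE and PRK both atg5 arrays on high nitrate lay under both Col-0 arrays.

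Averaged over the 3 conditions, the change in atg5 was -0.23 ± 0.15 for SBPASE (95% interval -0.55 to 0.09), -0.09 ± 0.12 for PRK (95% interval -0.36 to 0.18) and 0.00 ± 0.15 for ATPC1 (95% interval -0.31 to 0.32). The limma adjusted p were 0.376, 0.716 and 0.993, and 5.56% of probe sets passed. In atg9, averaged over both ages, the changes were -0.03 ± 0.18, 0.07 ± 0.15 and 0.08 ± 0.18, and 0.022% of probe sets passed. The mutants were also set against each other. At 30 days atg9 minus atg5 was 0.03 for SBPASE (95% interval -0.53 to 0.59), 0.02 for PRK (-0.45 to 0.48) and -0.09 for ATPC1 (-0.64 to 0.46). At 60 days it was 0.03 for SBPASE (-0.53 to 0.59), -0.14 for PRK (-0.61 to 0.33) and 0.04 for ATPC1 (-0.51 to 0.59). None passed, and these intervals reached down to -0.64 and up to 0.59.

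**Figure D3:**
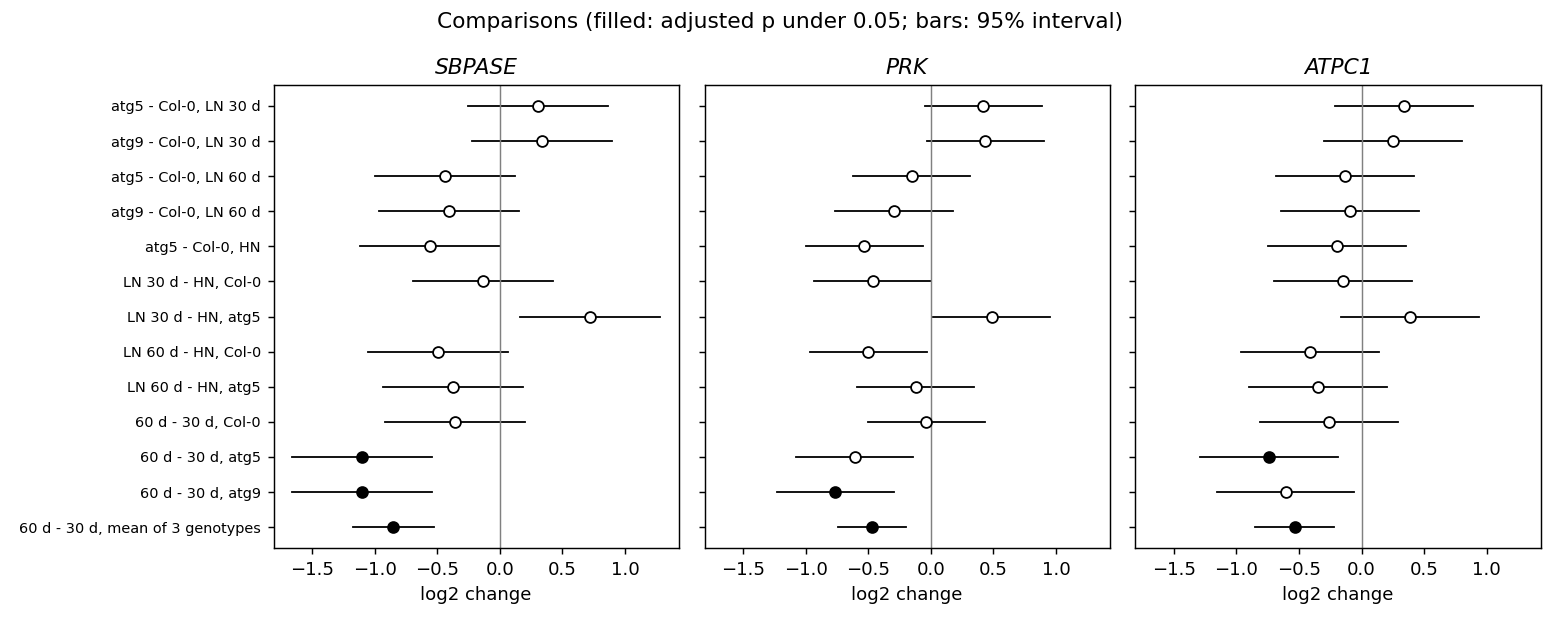
The log2 change (x axis) of SBPASE, PRK and ATPC1 in 13 comparisons (y axis), with 95% intervals of the limma fit as bars. Filled circles have an adjusted p under 0.05; these are the mean age change of each gene, the SBPASE age change in atg5 and atg9, the PRK age change in atg9 and the ATPC1 age change in atg5.

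Low nitrate at 30 days was compared with high nitrate in Col-0 and in atg5, with the age of the high-nitrate rosettes unsettled and the 30-day arrays shared with the comparison of ages. The PRK estimates had opposite signs in the 2 genotypes. In Col-0 both low-nitrate arrays lay under both high-nitrate arrays, a log2 change of -0.46 ± 0.21 (limma adjusted p = 0.187). In atg5 both lay above, a log2 change of 0.49 ± 0.21 (adjusted p = 0.157). How many of all probe sets split in these ways was not counted. SBPASE changed by -0.14 ± 0.26 in Col-0 (adjusted p = 0.767) and by 0.72 ± 0.26 in atg5 (95% interval 0.16 to 1.28, adjusted p = 0.0866). Without the culture 1 array of atg5 on high nitrate the SBPASE change in atg5 was 1.05 with an adjusted p of 0.048. ATPC1 changed by -0.15 ± 0.25 in Col-0 (adjusted p = 0.740) and by 0.39 ± 0.25 in atg5 (adjusted p = 0.337). No member passed, where 8.06% of probe sets did in Col-0 and 12.4% in atg5.

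The difference between these nitrate changes, atg5 minus Col-0, was 0.95 ± 0.30 for PRK (95% interval 0.29 to 1.61), with 0.82 in culture 1 and 1.08 in culture 2. Its unadjusted p was 0.00883 and its limma adjusted p 0.726. For SBPASE it was 0.86 ± 0.36 (95% interval 0.07 to 1.65), with 0.83 and 0.89 in the cultures, an unadjusted p of 0.0356 and an adjusted p of 0.854. For ATPC1 it was 0.54 ± 0.36 (adjusted p = 0.909), with 0.75 and 0.32. Without the 2 arrays that stood apart the differences were 0.80 for PRK, 0.55 for SBPASE and 0.28 for ATPC1. All 3 differences had 1 sign in both cultures and none passed, and in limma 0 of the 13648 probe sets passed, with 784 at an unadjusted p under 0.05. Averaged over both genotypes, low nitrate at 30 days minus high nitrate was 0.29 ± 0.18 for SBPASE, 0.01 ± 0.15 for PRK and 0.12 ± 0.18 for ATPC1, and 27.3% of probe sets passed.

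By the authors' scaling, low nitrate at 60 days set against high nitrate gave estimates below 0 for all 3 genes in both genotypes. Averaged over Col-0 and atg5 they were -0.43 ± 0.18 for SBPASE, -0.31 ± 0.15 for PRK and -0.38 ± 0.18 for ATPC1. The limma adjusted p were 0.204, 0.276 and 0.253, and 2.84% of probe sets passed. After quantile normalization the means were -0.25 for SBPASE, -0.0045 for PRK and -0.013 for ATPC1, and the sign turned for PRK in atg5 (0.11) and for ATPC1 in Col-0 (0.036).

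Other genes of the pathways were taken from lists, of which the annotation names a part. For the Calvin cycle 4 of 25 listed genes had a probe set, for the chloroplast ATP synthase 4 of 13, for the thioredoxin system of the chloroplast and its targets 9 of 19, for the light reactions 6 of 43 and for senescence 5 of 12, and all those named were tested. In the mean age change, where 21.9% of all probe sets were called lower, 1 of the 2 other Calvin cycle genes was called lower. AT1G56190, a locus without a gene symbol in the annotation, as are the other loci given by number below, fell by 0.58 ± 0.13 on the log2 scale (limma adjusted p = 0.00421), and RCA, Rubisco activase, changed by -0.23 ± 0.14 (adjusted p = 0.206). Of the 3 other genes listed with the ATP synthase 2 were called lower. AT2G21385 fell by 0.81 ± 0.15 (adjusted p = 0.000954) and AT3G29185 by 0.58 ± 0.13 (adjusted p = 0.00332). ATPC2, a second gene for the gamma subunit, changed by -0.26 ± 0.21 (adjusted p = 0.329).

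Of the 9 genes of the thioredoxin system 8 were called lower at 60 days and none higher, where 21.9% and 27.3% of all probe sets were. The median log2 change was -0.61 beside 0.06 over all tested probe sets. TRXY2, a y-type thioredoxin, fell by 1.01 ± 0.16 (limma adjusted p = 0.000347). NTRC, a plastid thioredoxin reductase that uses NADPH, fell by 0.74 ± 0.12 (adjusted p = 0.000465). AT2G04700 fell by 0.65 ± 0.12 and AT3G11630 by 0.99 ± 0.19, with adjusted p of 0.000965 and 0.00118. TRXY1, the other y-type thioredoxin, changed by 0.17 ± 0.28 and did not pass. After quantile normalization 7 of the 9 were called lower, with a median of -0.46.

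Of the 6 genes of the light reactions 6 were called lower, where 21.9% of all probe sets were, with a median log2 change of -0.54. Without the 2 arrays that stood apart 5 of 6 were called lower. PSAE1 of photosystem I was then at -0.39 with a limma adjusted p of 0.0753. PSBW and PSBY, small proteins of photosystem II, fell by 0.67 ± 0.12 and 0.65 ± 0.18 (limma adjusted p of 0.000802 and 0.0103). PSAN of photosystem I fell by 0.55 ± 0.14 (adjusted p = 0.00618), and LHCB4.1, an antenna protein of photosystem II, by 0.53 ± 0.16 (adjusted p = 0.0142). As with PRK and ATPC1, the calls depended on the scaling. After quantile normalization 2 of the 6 were called lower, PSBW and PSBY, and the median was -0.18.

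Of the 5 senescence genes 4 were called higher at 60 days, where 27.3% of all probe sets were, and 3 of 5 in the fit with no replicate block. WRKY6, a transcription factor that rises in senescing leaves, rose by 1.95 ± 0.22 on the log2 scale (limma adjusted p = 5.11e-05). Its mean log2 signal, 6.585, lay near the filter limit of 6.553. After quantile normalization it was not among the probe sets tested, and 3 of the 4 genes left were called higher. PPDK, pyruvate orthophosphate dikinase, rose by 1.85 ± 0.21 (adjusted p = 5.37e-05), the senescence-associated gene SAG101 by 1.15 ± 0.24 (adjusted p = 0.00263) and WRKY53, a transcription factor and regulator of senescence, by 1.59 ± 0.57 (adjusted p = 0.0356). SWEET15, a sugar transporter also known as SAG29, changed by -1.02 ± 0.55 (adjusted p = 0.143), and without the 2 arrays that stood apart it was called lower, at -1.63 with an adjusted p of 0.0435. The root marker BGLU23 moved with age as well, by -1.33 ± 0.21 (adjusted p = 0.000371), and its part in the falls was not tested; it is the only 1 of 5 listed root markers that a probe set names.

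**Figure D4:**
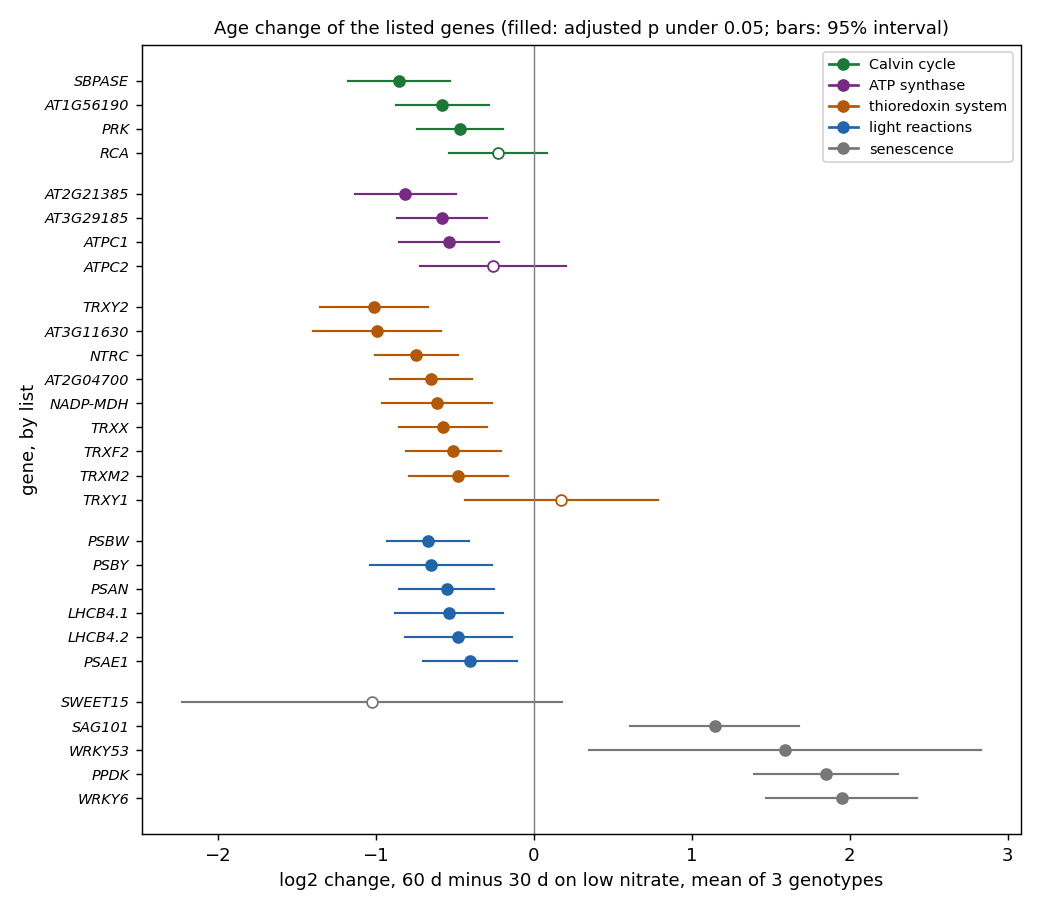
The log2 change from 30 to 60 days on low nitrate, mean of 3 genotypes (x axis), of the genes of 5 lists (y axis), with 95% intervals of the limma fit as bars and filled circles for an adjusted p under 0.05. The thioredoxin system has 8 of 9 and the light reactions 6 of 6 genes called lower, and the senescence list has 4 of 5 called higher. Of all probe sets 21.9% were called lower and 27.3% higher.

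In the nitrate comparison averaged over Col-0 and atg5, 3 of 9 thioredoxin system genes were called higher on low nitrate at 30 days. Of all probe sets 12.8% were called higher and 14.5% lower. The age of the high-nitrate rosettes is unsettled, so effects of nitrate and of age cannot be told apart in this comparison. NTRC rose by 0.94 ± 0.15 (limma adjusted p = 0.00138), TRXX, an x-type thioredoxin, by 0.53 ± 0.16 (adjusted p = 0.0270) and AT3G11630 by 0.72 ± 0.23 (adjusted p = 0.0363). Without the 2 arrays that stood apart AT3G11630 was at 0.82 with an adjusted p of 0.0507 and TRXY2 was called, at 0.55 with an adjusted p of 0.0498. Of the other genes listed with the ATP synthase 2 of 3 were called higher, AT2G21385 by 0.89 ± 0.18 (adjusted p = 0.00458) and AT3G29185 by 0.50 ± 0.16 (adjusted p = 0.0364), while ATPC1 itself stood at 0.12 ± 0.18. Without the 2 arrays 1 of these 3 was called, and AT3G29185 was at 0.37 with an adjusted p of 0.101. No gene of the other Calvin cycle genes or of the light reactions passed, and 3 of 5 senescence genes were called lower, PPDK by -1.31 ± 0.26, WRKY6 by -1.21 ± 0.27 and SAG101 by -1.02 ± 0.30. The root marker BGLU23 stood higher on low nitrate, by 1.85 ± 0.25 (adjusted p = 0.000725), and its part in these changes was not tested. After quantile normalization, where WRKY6 was not tested, 2 of the 4 senescence genes left were called lower in the nitrate comparison. In the mean of atg5 minus Col-0 0 of these 4 then passed. By the authors' scaling no gene of the 4 photosynthesis lists passed in the mean of atg5 minus Col-0, and of the senescence genes WRKY6 rose, by 1.10 ± 0.22 (adjusted p = 0.0136). Without the 2 arrays SAG101 was called as well, at 0.96 with an adjusted p of 0.0310.

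The 3 genes varied together over the 16 arrays, which share the authors' scaling and the differences between ages. Pearson's r between their log2 signals was 0.894 for SBPASE and PRK, 0.917 for SBPASE and ATPC1 and 0.860 for PRK and ATPC1. It was 0.920, 0.923 and 0.850 over the 14 arrays without the 2 that stood apart. All r values here, also those of the partners below, were computed by the authors' scaling only. How far they rest on shifts of the upper end of the arrays was not tested. Each gene was set against the 7319 other tested probe sets with 1 gene name. For ATPC1 the highest r belonged to LHCB4.1 (0.980), PSAN (0.941), PSBY (0.924), SBPASE (0.917) and NdhL (0.911), a subunit of the chloroplast NADH dehydrogenase-like complex, where the 99 percentile of all candidates was 0.806. For SBPASE it belonged to AT4G01150 (0.954), which RefSeq gives as CURT1A, a protein that curves thylakoid membranes. Next came LCR68 (0.950), AT5G16140 (0.947), AT5G58330 (0.945), which encodes the chloroplast NADP-malate dehydrogenase, and AT4G19830 (0.940), where the 99 percentile was 0.870. For PRK it belonged to SBPASE (0.894), AT2G36835 (0.867), CHL, the chloroplastic lipocalin (0.863), ATPC1 (0.860) and AT1G22630 (0.858), where the 99 percentile was 0.734. Of these partners LCR68 had the strongest age change, -1.72 ± 0.23 on the log2 scale (limma adjusted p = 0.000151).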

How the data were processed

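The deposited table gives 1 intensity per probe set and array, which the authors computed with MAS5 (version not stated), per the submitters' processing notes. The intensity values were used as deposited, floored at 1 and put on a log2 scale. The 64 control probe sets were left out, as were probe sets whose mean log2 signal lay under the 40th percentile (a signal of 93.9), which left 13648. limma 3.58.1 in R 4.3.3 was fitted to all 16 arrays with the 8 groups and the culture as a block (lmFit, eBayes with a trend, two-sided), with 7 residual degrees of freedom. P-values of each of the 22 comparisons were adjusted over all 13648 probe sets (Benjamini-Hochberg) and called under 0.05. The fit was run on simulated data with independent noise and known age changes. The simulation held no effects of culture, genotype or nitrate and no shift of the upper end of the arrays. It therefore cannot show how the fit handles these.

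The labels give the replicate number as the culture, so the block was kept. Over 28 pairs of groups the culture differences correlated at r = -0.159 to 0.686 (median -0.0657), with 8 over 0.1. The p-values rest on 2 cultures of pooled plants.

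Genes were named from the probe annotation, which gives 1 gene to 13513 probe sets, several to 503 and does not list 8730; of those with 1 gene 13436 were matched to a locus. For each gene the probe set with the highest mean was used. From each list up to 4 genes with the smallest p past the threshold are named, otherwise the most extreme, and for each of the 3 genes the 5 probe sets with the highest Pearson r over the arrays. The genes and lists were chosen with earlier results of these data known. Alternatives were no replicate block, quantile normalization, no filter, the signal plus 32, no trend, the arrays that stood apart left out, and each array left out in turn.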

Additional observations from a re-analysis of the deposited data

How the results depend on the processing

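The fall of SBPASE with age, averaged over genotypes, kept its call in limma under every alternative run, and leaving out single arrays gave log2 changes of -0.95 to -0.76. Leaving out single arrays also kept the calls of PRK (-0.54 to -0.39) and ATPC1 (-0.63 to -0.44). Quantile normalization ended both calls, at -0.10 for PRK and -0.13 for ATPC1, and it cut the called genes of the light reactions from 6 to 2. In the paired test of SBPASE, 4 pairs without the arrays that stood apart gave a mean of -0.99 and an exact permutation p of 0.125, the smallest that 4 pairs allow. Without those arrays 1 of 3 other ATP synthase genes was called in the nitrate comparison, where 2 were called with them. The fit with no replicate block left the mean age changes at -0.85, -0.47 and -0.54 and their calls as they were, and changed the call of PRK in atg5 at 60 minus 30 days (-0.61, adjusted p = 0.0496). For SBPASE, PRK and ATPC1, over all comparisons and alternatives, 712 values kept direction and side, 22 lost a call, 2 gained one and 53 changed sign, none of these past the threshold. The list counts were recomputed without the block, after quantile normalization and without both arrays. In the mean age and the mean nitrate comparison 22 of them stayed within 1.5 times and 2 did not, and list counts in single genotypes are not reported. The counts of called probe sets stayed within 1.5 times of the main ones in the mean age, mean atg5 and mean 30-day nitrate comparisons. For the other comparisons, and with single arrays left out, these counts were not compared. For each gene only 1 probe set was named, so no other probe set could be tried. The cause of these changes was not tested.

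Sign changes without the arrays that stood apart were, for SBPASE, -0.0056 in atg5 minus Col-0 at 30 days, -0.13 in atg9 minus atg5 at 60 days and 0.17 in low nitrate at 30 days minus high nitrate in Col-0. For PRK the value was -0.0030 in the mean of atg9. For ATPC1 they were -0.0077 in atg9 at 30 days, -0.087 in the mean of atg5, -0.050 in the mean of atg9 and 0.11 for nitrate in Col-0. After quantile normalization they were, for PRK, 0.21 for age in Col-0, -0.018 for mean nitrate at 30 days and 0.11 for nitrate at 60 days in atg5, and for ATPC1 0.068 for age in Col-0 and 0.036 for nitrate at 60 days in Col-0.

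Leaving out single arrays changed the sign of some values near 0. For SBPASE the ranges were -0.13 to 0.19 and -0.10 to 0.16 in atg9 minus atg5 at 30 and 60 days, -0.18 to 0.11 in the mean of atg9 and -0.42 to 0.15 for nitrate in Col-0. For PRK they were -0.32 to 0.022 in atg5 at 60 days, -0.21 to 0.24 in atg9 minus atg5 at 30 days, -0.015 to 0.16 in the mean of atg9 and -0.21 to 0.14 for age in Col-0. They were also -0.10 to 0.13 for mean nitrate at 30 days and -0.25 to 0.011 for nitrate at 60 days in atg5. For ATPC1 they were -0.0092 to 0.51 and -0.37 to 0.19 in atg9 at 30 and 60 days, -0.44 to 0.053 in atg5 on high nitrate, and -0.24 to 0.064 and -0.24 to 0.32 in atg9 minus atg5. They were also -0.084 to 0.091 in the mean of atg5, -0.060 to 0.22 in the mean of atg9, -0.41 to 0.11 for nitrate in Col-0 and -0.012 to 0.25 for mean nitrate at 30 days.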
